A study of Mus musculus with 16 samples.

Results

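The comparison described here sets TGFB against BMP2 in wild-type epicardial cells. Its members are 6 of the 16 libraries of the study: the 4 wild-type libraries treated with TGFB1 or TGFB2, pooled, and the 2 treated with BMP2. Of 30385 gene entries in the deposited tables, 16835 held enough reads to be tested. Cells came from 1 immortalized line (wt, genotype Tgfbr3+/+:Immorto), isolated from the epicardium of E11.5 mouse embryos of a mixed C57BL/6 and SV129 background. All groups carry a temperature-sensitive T antigen, which was switched off by moving the cells from 33 °C to 37 °C and by leaving out interferon gamma (INFγ) and the insulin, transferrin and selenium supplement (ITS). TGFB1 and TGFB2 were each given at 250 pM and BMP2 at 5 nM, all for 72 h, so the ligand and its dose cannot be told apart in this comparison. Polyadenylated RNA was sequenced from 2 libraries for each ligand and 2 for vehicle. A second line, in which both alleles of Tgfbr3 were deleted (mt, 1 line), received the same treatments; its libraries enter the fit that sets the spread for all groups, and its values are given for the same contrast. Nothing in the labels ties the replicates to separate cultures, so p-values measure the spread between libraries, which may be technical.

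TGF-beta and BMP ligands belong to 1 superfamily of secreted factors and signal through paired type I and type II serine/threonine kinase receptors. TGFB1 and TGFB2 act mainly through SMAD2 and SMAD3, and BMP2 acts mainly through SMAD1, SMAD5 and SMAD9 (also called SMAD8); both branches use SMAD4 in the nucleus and induce their own inhibitors. The epicardium is the mesothelial sheet over the heart, and TGF-beta is known there for driving loss of the epithelial state and differentiation toward smooth muscle and fibroblasts. Tgfbr3 encodes betaglycan, a co-receptor that presents TGFB2 in particular and also binds BMP2.

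Levels are given as reads per 1000000 after TMM scaling (CPM). Differences are log2 fold changes of TGFB over BMP2 with their standard error (SE), from a fit across all genes with the replicate number as a term. A positive value means higher with TGFB. A gene was called when its adjusted p was below 0.05 in edgeR's quasi-likelihood test. The 4 TGFB levels are always in the order TGFB1 replicate 1, TGFB1 replicate 2, TGFB2 replicate 1, TGFB2 replicate 2, and the BMP2 and vehicle levels are replicates 1 and 2.

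The ligands gave widely different transcriptomes. Of 16835 genes, 6847 were called, which is 40.7% of all tested. With TGFB 3458 genes (20.5%) were higher, and with BMP2 3389 (20.1%). These shares are the background for the count of each gene list below. The called genes had a median absolute log2 fold change of 1.01, and over all genes tested the median was 0.48 in size and 0.02 with its sign. Differences above 4-fold were found for 749 genes higher with TGFB and 465 higher with BMP2, and differences above 8-fold for 340 and 148. Across all 16835 genes the replicate 1 and replicate 2 differences had a correlation of 0.79, with genes not being independent replicates. For 5973 of the 6847 called genes the TGFB libraries did not overlap the BMP2 libraries. A lack of overlap is therefore no particular trait of the genes named below.

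The comparison pools both TGFB ligands. TGFB2 against TGFB1 gave no called gene (0 of 16835 in edgeR's quasi-likelihood test, 318 at an unadjusted p under 0.05, and 0 by DESeq2). Set against BMP2 on its own, TGFB1 gave 5225 called genes and TGFB2 gave 6316. The share of genes called rose with the level at which a gene was measured. It was 25.9% of 1923 genes with a mean under 1 CPM, 40.5% of 4218 genes from 1 to 10 CPM, 42.4% of 8436 genes from 10 to 100 CPM and 47% of 2258 genes above that. The median SE fell from 0.63 in the lowest class to 0.18 in the highest.

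**Figure D1:**
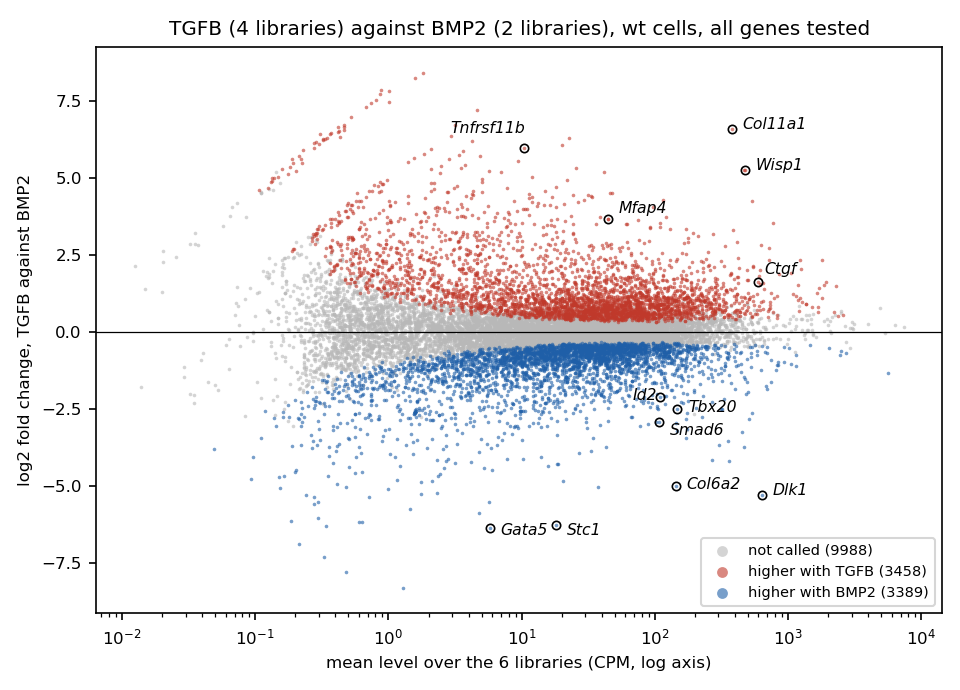
Log2 fold change of TGFB against BMP2 (vertical axis) by the mean level over the 6 libraries (horizontal axis, CPM, log scale) for all 16835 genes tested in wt cells. Red points are the 3458 genes called higher with TGFB, blue points the 3389 called higher with BMP2, grey points those not called, and named genes are circled.

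The 6 libraries held between 6.41 and 31.81 reads in units of 1000000, with BMP2 replicate 1 the shallowest. Summed epicardial and mesothelial markers (14 genes, all detected) ran from 1351 to 1596 CPM with TGFB, from 3704 to 3986 with BMP2 and from 3864 to 3897 with vehicle, in a line labelled epicardial. The largest parts of the BMP2 sum were Lrrn4 (mean 169.1 CPM with TGFB and 1177 with BMP2) and Upk3b (260.9 and 991.6). Of the 14, 10 were called higher with BMP2 and 1 higher with TGFB, and Msln (476.4 and 362.6 CPM) was not called. Summed cardiomyocyte markers (10 genes) ran from 659 to 914 CPM with TGFB and from 188 to 384 with BMP2, but 7 of the 10 (Myh6, Myh7, Tnni3, Actn2, Nppa, Myl2 and Ryr2) were under 1 CPM in all 6 libraries. Nearly all of that sum was Tnnt2, which encodes cardiac troponin T, at 833, 764, 648 and 906 CPM with TGFB and 174 and 373 CPM with BMP2 (1.57 ± 0.29, adjusted p = 0.00068). Endothelial markers summed to 21.6 to 29.5 CPM with TGFB and 51.9 to 87.5 with BMP2, with Pecam1 and Emcn under 1 CPM throughout. Blood markers summed to 20.9 to 35.7 CPM with TGFB and 15.5 to 17 with BMP2, with Ptprc under 1 CPM and Hbb-bh1 at 0; Cd68 was higher with TGFB (1.21 ± 0.22) and Csf1r higher with BMP2 (-2.27 ± 0.34). Mural and fibroblast markers summed to 140 to 248 CPM with TGFB and 706 to 855 with BMP2. Most of that sum was Dcn (mean 119.9 CPM with TGFB and 560.3 with BMP2) and Pdgfra (40.47 and 185.5). Of the 6 tested markers, 3 were called higher with BMP2 and 1, Myh11, higher with TGFB. Pdgfrb was not called (-0.43 ± 0.17), and Rgs5 was under 1 CPM in all 6 libraries. In bulk RNA, fewer cells of a type and less RNA per cell cannot be told apart.

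Known targets of the TGF-beta branch were mostly higher with TGFB. Of 38 tested genes on the list of TGF-beta and SMAD3 targets, 20 were called higher with TGFB and 8 higher with BMP2, and the median log2 fold change was 0.82 against 0.02 over all genes. Ctgf, the matricellular growth factor CCN2 (mm9 chr10:24315247-24318488, plus strand), stood at 860.3, 605, 799 and 830.2 CPM with TGFB and 189 and 309 CPM with BMP2, and at 122 and 129 CPM with vehicle. All 4 TGFB libraries lay above both BMP2 libraries, and these lay above both vehicle libraries (3.11-fold between the ligands, log2 fold change 1.64 ± 0.24 (SE), adjusted p = 0.000107). Pmepa1, a TGF-beta-induced membrane protein that restrains SMAD2 and SMAD3, was at 706, 475, 603 and 552 CPM with TGFB and 105 and 54.6 CPM with BMP2 (2.93 ± 0.24, adjusted p = 9.12e-07). Cdkn2b, which encodes the cyclin-dependent kinase inhibitor p15, was at 595, 667, 912 and 767 CPM with TGFB and 134 and 202 CPM with BMP2 (2.13 ± 0.20, adjusted p = 3.38e-06), and its vehicle levels of 213 and 176 CPM lay close to BMP2. The growth factor gene Pdgfb was at 20.6, 14.8, 19.9 and 18.1 CPM with TGFB and 2.26 and 4.03 CPM with BMP2 (2.41 ± 0.25, adjusted p = 6.09e-06). For each of these genes the TGFB and BMP2 libraries did not overlap.

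Of the 8 list members that were higher with BMP2, all but Smad7 were named after their values were seen. They were Kank4 (-2.07 ± 0.27), the matrix protein gene Tgfbi (-1.78 ± 0.29), the fibronectin gene Fn1 (-1.33 ± 0.21), the inhibitory Smad7 (-0.87 ± 0.16), the type I collagen gene Col1a2 (-0.74 ± 0.18), the repressor gene Snai1 (-0.62 ± 0.17), the thrombospondin gene Thbs1 (-0.62 ± 0.17) and the endothelin gene Edn1 (-0.56 ± 0.19). Fn1 was at 4830, 3385, 3516 and 2837 CPM with TGFB and 13160 and 5895 CPM with BMP2, and the vehicle libraries, at 7079 and 4905 CPM, lay above all TGFB libraries and overlapped those with BMP2. The TGFB and BMP2 libraries of Edn1 overlapped. The count of 8 fell to 5 without BMP2 replicate 1 and to 5 without BMP2 replicate 2; the calls lost included Thbs1 and Edn1 in either case, Col1a2 without replicate 1 and Snai1 without replicate 2.

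Of 27 tested genes on the list of BMP and SMAD1/5 targets, 18 were called higher with BMP2 and 3 higher with TGFB, with a median log2 fold change of -1.72. Against vehicle the median of this list was -1.39 with TGFB and 0.46 with BMP2. Smad6, an inhibitory SMAD of the BMP branch (mm9 chr9:63800882-63869866, minus strand), was at 29.2, 35.4, 30.6 and 40 CPM with TGFB and 299.9 and 211 CPM with BMP2 (-2.93 ± 0.22 (SE), adjusted p = 4.91e-07), a 7.63-fold difference. Smad9, the gene of a BMP receptor-regulated SMAD, was at 3.65, 5.18, 4.01 and 5.34 CPM with TGFB and 53.9 and 39.4 CPM with BMP2 (-3.35 ± 0.22, adjusted p = 1.76e-07). Atoh8, which encodes a basic helix-loop-helix factor, was at 21.9, 28.2, 17.2 and 23.3 CPM with TGFB and 188 and 122 CPM with BMP2 (-2.75 ± 0.21, adjusted p = 5.04e-07). In all 3 genes the lowest BMP2 library lay above the highest TGFB library, and most called genes likewise had no overlap. Mean vehicle levels of Smad6, Smad9 and Atoh8 were 184.1, 38.03 and 138.6 CPM. They lay nearer to the BMP2 means (255.4, 46.65 and 154.8 CPM) than to those with TGFB.

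The Id genes encode inhibitors of basic helix-loop-helix factors and are the textbook readout of BMP signalling. Id2 (mm9 chr12:25778663-25780957, minus strand) was at 30.1, 79.7, 26.1 and 83.4 CPM with TGFB and 165 and 271 CPM with BMP2 (-2.11 ± 0.21, adjusted p = 4.56e-06), and the vehicle libraries were at 159 and 260.4 CPM, level with BMP2. Id3 was at 266, 618, 256 and 692 CPM with TGFB and 909 and 1765 CPM with BMP2 (-1.62 ± 0.24, adjusted p = 0.000119). Id1 was at 254, 294, 199.5 and 368 CPM with TGFB and 407 and 563 CPM with BMP2 (-0.80 ± 0.20, adjusted p = 0.00629), and both vehicle libraries, at 687 and 614 CPM, lay above both BMP2 libraries. For each of the 3 Id genes the TGFB and BMP2 libraries did not overlap, as for most called genes. The calls of Id1 and Id3 depended on the replicate term, without which their adjusted p was 0.096 and 0.0955; that of Id1 was 0.0501 without BMP2 replicate 1.

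Transcription factor genes on the list ranged from differences larger than those of the Id genes to differences that were not called, as for Gata3 (-0.08 ± 0.15) and Hes1 (-0.24 ± 0.13), both named after their values were seen. Dlx3, a homeobox gene of the distal-less family, was at 0.118, 0.246, 0.121 and 0.177 CPM with TGFB and 7.08 and 6.25 CPM with BMP2 (-5.23 ± 0.36, adjusted p = 2.47e-07), with 16 reads over the 4 TGFB libraries and 165 over the 2 BMP2 libraries. Prrx2, a paired-related homeobox gene, was at 1.53, 1.82, 1.34 and 1.59 CPM with TGFB and 20.6 and 15.9 CPM with BMP2 (-3.50 ± 0.21, adjusted p = 7.94e-08). Named after their values were seen, Gata2 (-3.04 ± 0.26), Dlx2 (-2.87 ± 0.27) and Msx1 (-1.83 ± 0.18) were called in the same direction. Id4, Dlx4, Bambi, Smad7, Runx2, Alpl and Tbx20 completed the 18. The 3 members higher with TGFB, also named after their values were seen, were Bmper (0.94 ± 0.16), which encodes a BMP-binding modulator, the osteocalcin gene Bglap (2.68 ± 0.57), whose entry overlaps near-identical copies and whose reads are uncertain, and Fzd10, a Wnt receptor gene. The call of Bglap was lost without BMP2 replicate 2 (1.80, adjusted p = 0.15). Fzd10 had 624 reads over the 4 TGFB libraries and 3 over the BMP2 libraries, a depth-scaled ratio of 60 with a 95% counting interval from 20.4 to 292 that covers counting error only.

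Promoter sequences are shown for 4 genes called between the ligands, a pair higher with BMP2 than with TGFB and a pair higher with TGFB than with BMP2. These 4 were picked by hand and not by a rule, and each holds a match. That motif and direction go together in them is therefore no result. RefSeq promoters (GRCm38.p6, the 250 bases before the transcript start) were found for 121 of 170 named genes. They were searched on both strands for GGCGCC, a motif bound by SMAD1 and SMAD5, for CAGACA, the core of the CAGA box bound by SMAD3, and for the palindrome GTCTAGAC. The capitals mark the match, and on the strand shown the match in Acta2 reads as its reverse complement.
Id2, chr12:25096093-25096342, minus strand, GGCGCC starting 231 bases upstream: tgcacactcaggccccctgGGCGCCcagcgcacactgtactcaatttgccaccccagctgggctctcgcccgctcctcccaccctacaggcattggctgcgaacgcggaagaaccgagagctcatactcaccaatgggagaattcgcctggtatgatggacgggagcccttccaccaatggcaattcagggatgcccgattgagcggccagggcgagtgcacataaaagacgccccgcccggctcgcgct
Smad9, chr3:54755332-54755581, plus strand, GGCGCC starting 51 bases upstream: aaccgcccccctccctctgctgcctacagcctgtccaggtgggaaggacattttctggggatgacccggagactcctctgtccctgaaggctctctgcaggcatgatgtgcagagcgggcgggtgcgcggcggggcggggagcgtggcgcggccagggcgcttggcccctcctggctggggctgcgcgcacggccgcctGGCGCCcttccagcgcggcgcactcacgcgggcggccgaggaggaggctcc
Acta2, chr19:34255374-34255623, minus strand, CAGACA starting 236 bases upstream: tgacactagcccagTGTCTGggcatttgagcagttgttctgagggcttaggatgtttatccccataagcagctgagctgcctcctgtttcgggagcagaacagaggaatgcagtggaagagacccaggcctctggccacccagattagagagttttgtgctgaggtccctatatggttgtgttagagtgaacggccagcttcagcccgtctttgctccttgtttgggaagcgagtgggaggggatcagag
Mmp10, chr9:7502092-7502341, plus strand, CAGACA starting 221 bases upstream: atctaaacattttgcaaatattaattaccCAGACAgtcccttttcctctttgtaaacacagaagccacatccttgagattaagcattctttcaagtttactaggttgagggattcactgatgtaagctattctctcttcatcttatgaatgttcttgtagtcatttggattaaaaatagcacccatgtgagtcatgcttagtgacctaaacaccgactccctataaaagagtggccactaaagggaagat

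These motifs are common. GGCGCC was present in 10.8% of all 27025 promoters, in 19.5% of those of tested genes, in 22% of those of genes called higher with BMP2 and in 18.5% of those of genes called higher with TGFB. CAGACA was present in 19.3% of all promoters, in 15.9% of those of tested genes, in 19.1% of those of genes higher with TGFB and in 15% of those of genes higher with BMP2. GTCTAGAC was present in 0.2% of all promoters and in none of the 4 shown. A match is a description of letters in this window and no site of binding.

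Components of the pathways themselves differed in both directions. Of 28 tested BMP ligands, receptors and antagonists, 10 were higher with TGFB and 8 higher with BMP2 (64.3% called, 40.7% of all genes). The median was 0.29. The ligand gene Bmp4 was at 36.7, 56.1, 36 and 45.9 CPM with TGFB and 269.8 and 181 CPM with BMP2 (-2.40 ± 0.20, adjusted p = 1.13e-06), and vehicle was at 231 and 241 CPM. Bmp3, whose product counteracts other BMPs, was at 1.24, 1.51, 2.06 and 1.24 CPM with TGFB and 21.2 and 12.3 CPM with BMP2 (-3.42 ± 0.26, adjusted p = 5.16e-07), and Chrdl1, a chordin-like BMP antagonist, was at 0.354, 0.739, 0.243 and 0.618 CPM with TGFB and 6.47 and 6.94 CPM with BMP2 (-3.79 ± 0.31, adjusted p = 8.91e-07). The opposite direction was seen for Bmp1, a procollagen proteinase rather than a BMP ligand, at 387, 248, 357 and 236 CPM with TGFB and 103 and 49.3 CPM with BMP2 (2.07 ± 0.21, adjusted p = 5.96e-06). The count of 8 was 5 without BMP2 replicate 1, TGFB1 replicate 2 or TGFB2 replicate 2.

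Among 20 tested TGF-beta ligands, receptors and latent binding proteins, 8 were higher with TGFB and 6 higher with BMP2, with a median of 0.32; the 6 were 3 without BMP2 replicate 1. Ltbp2, of the latent TGF-beta binding protein family, was at 1025, 1062, 896 and 1066 CPM with TGFB and 145 and 162 CPM with BMP2 (2.72 ± 0.33, adjusted p = 2.69e-05). Inhba, the activin subunit gene, was at 44.1, 31.9, 44.3 and 28.7 CPM with TGFB and 10.4 and 12 CPM with BMP2 (1.65 ± 0.26, adjusted p = 0.000168), and Inha, the inhibin alpha subunit gene, was at 2.53, 1.69, 2.25 and 1.37 CPM with TGFB and 7.98 and 4.71 CPM with BMP2 (-1.68 ± 0.23, adjusted p = 7.26e-05). Acvr1b, the type I receptor ALK4 of activins, was at 15.8, 19.5, 15.1 and 21.2 CPM with TGFB and 50 and 42.5 CPM with BMP2 (-1.37 ± 0.15, adjusted p = 1.11e-05). The receptor genes Tgfbr1 and Tgfbr2, named after their values were seen, differed less than the genes just given. Tgfbr1 was at 37.1, 47.7, 67.4 and 61.4 CPM with TGFB and 18.5 and 29.5 CPM with BMP2 (1.14 ± 0.19, adjusted p = 0.000351). Tgfbr2 was not called, at 110.4, 115, 112 and 113 CPM with TGFB and 128 and 137 CPM with BMP2 (-0.24 ± 0.13, adjusted p = 0.161).

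Tgfbr3 was lower with TGFB, at 34.4, 57.7, 32.5 and 51 CPM with TGFB and 88.1 and 75 CPM with BMP2 (-0.94 ± 0.18, adjusted p = 0.000746), and the vehicle libraries were at 71 and 100.3 CPM. Of 20 tested SMADs and SMAD regulators, 6 were higher with TGFB and 7 higher with BMP2 (65% called, 40.7% of all genes). The median was 0.01. Smad7, the inhibitory SMAD that both branches can induce, was at 79.4, 78.5, 89 and 88.5 CPM with TGFB and 178 and 129.6 CPM with BMP2 (-0.87 ± 0.16, adjusted p = 0.000607). Its BMP2 libraries lay above both vehicle libraries (94.2 and 88.8 CPM), whereas the TGFB libraries were at or below them. Bambi, a pseudoreceptor that dampens TGF-beta signals, was at 13.4, 12.5, 15.5 and 13.7 CPM with TGFB and 37.9 and 41.6 CPM with BMP2 (-1.53 ± 0.19, adjusted p = 3.34e-05).

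Vehicle shows on which side a difference arose, and it enters here as values set side by side, since both contrasts share the vehicle libraries. TGFB against vehicle gave 6707 called genes (39.8% of those tested). BMP2 against vehicle gave none by edgeR's quasi-likelihood test (0% of 16835 genes), with 2362 at an unadjusted p under 0.05, and 206 by DESeq2. The values of BMP2 against vehicle given below are therefore descriptions with an SE, and none is a call of edgeR.

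For a first group of genes, BMP2 lay above vehicle and TGFB below it. Tbx20, a T-box factor gene of the developing heart (mm9 chr9:24527647-24578746, minus strand), was at 50, 67.6, 55.7 and 59.5 CPM with TGFB and 393 and 260.2 CPM with BMP2, with vehicle at 135 and 145 CPM. The 3 conditions did not overlap, and the ligand difference was -2.49 ± 0.18 (SE), adjusted p = 3.28e-07. Against vehicle, BMP2 stood at 1.22 ± 0.21 and TGFB at -1.26 ± 0.18. The same order held for Dlx3 (BMP2 1.57 ± 0.33, TGFB -3.66 ± 0.37) and for the osteoblast factor gene Runx2 (BMP2 0.84 ± 0.21, TGFB -0.88 ± 0.18). It also held for Cdh13, the T-cadherin gene (BMP2 1.28 ± 0.41, TGFB -3.14 ± 0.40), and for Alpl, alkaline phosphatase (BMP2 1.60 ± 0.41, TGFB -1.96 ± 0.42).

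For a second group, BMP2 and vehicle were alike in value and TGFB stood apart. Dlk1, a non-canonical Notch ligand gene (mm9 chr12:110691032-110701546, plus strand), was at 42.7, 54.6, 36.1 and 56.3 CPM with TGFB and 1900 and 1723 CPM with BMP2, with vehicle at 1779 and 1765 CPM. Only the TGFB libraries were low, by 39.2-fold against BMP2 (-5.29 ± 0.25 (SE), adjusted p = 1.65e-08), and BMP2 against vehicle was 0.04 ± 0.28. Id2 (BMP2 0.05 ± 0.25, TGFB -2.06 ± 0.21), the podocalyxin gene Podxl (BMP2 0.01 ± 0.27, TGFB -4.28 ± 0.25) and the collagen gene Col6a2 (BMP2 0.24 ± 0.27, TGFB -4.74 ± 0.24) were of this kind.

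For a further group, BMP2 lay on the same side of vehicle as TGFB and closer to it. Ctgf was 0.99 ± 0.26 with BMP2 and 2.63 ± 0.25 with TGFB. Has2, the main hyaluronan synthase gene, was 0.92 ± 0.21 and 3.73 ± 0.20, the smooth muscle gene Cnn1 0.87 ± 0.27 and 3.37 ± 0.25, and Crabp1, a retinoic acid binding protein gene, 1.71 ± 0.33 and 5.19 ± 0.26. Mmp10, the stromelysin-2 gene, was 1.24 ± 0.49 and 5.83 ± 0.35. A difference of TGFB over BMP2 is smaller than that over vehicle for these genes.

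**Figure D2:**
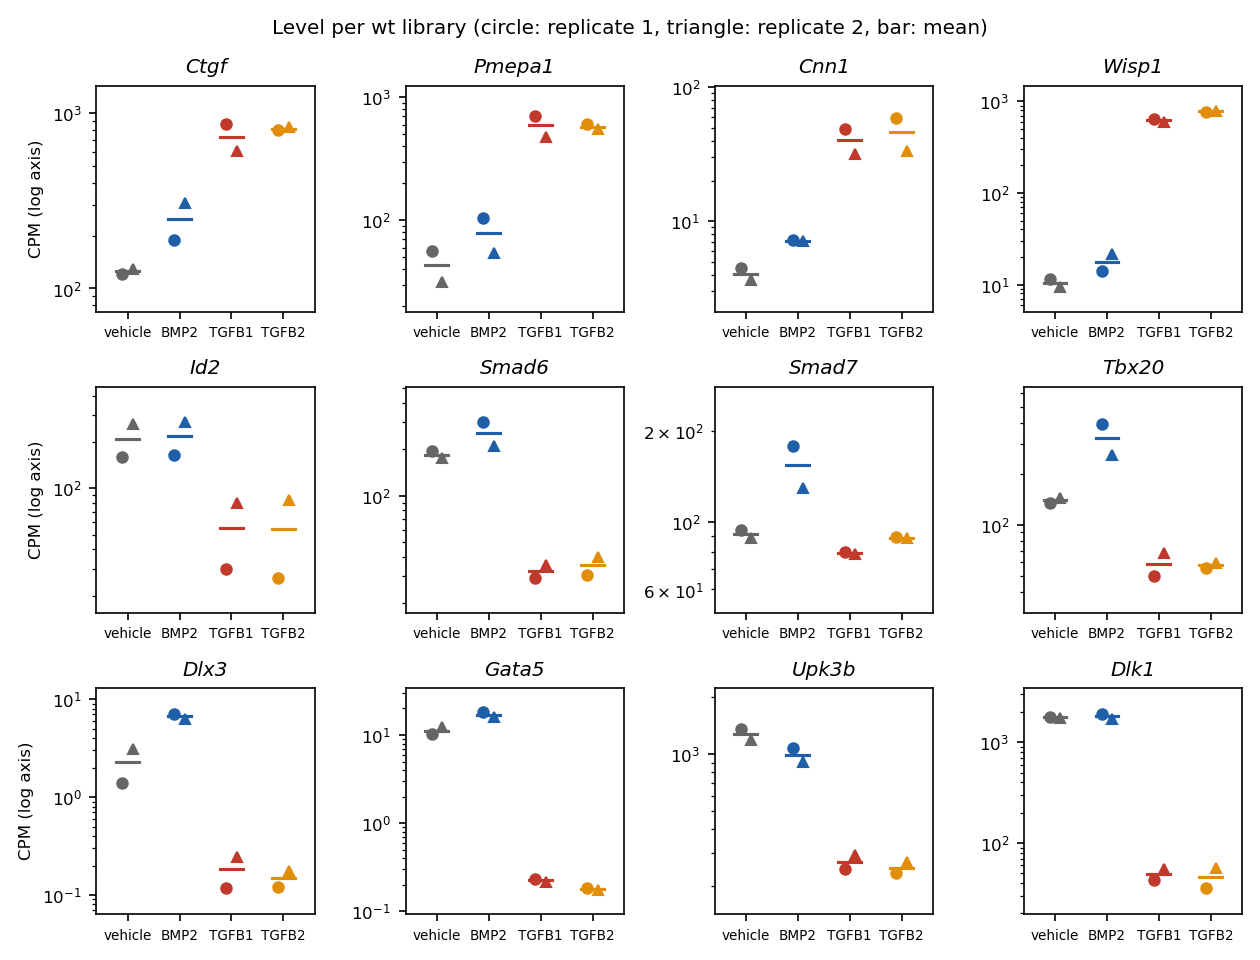
Level in each wt library (vertical axis, CPM, log scale, a separate scale for each gene) for 12 genes under vehicle, BMP2, TGFB1 and TGFB2; circles are replicate 1, triangles replicate 2 and bars the mean of the 2. Ctgf, Pmepa1, Cnn1 and Wisp1 are highest with TGFB1 and TGFB2, Tbx20, Dlx3 and Smad7 are highest with BMP2, and Id2, Upk3b and Dlk1 are lowest with TGFB1 and TGFB2.

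**Figure D3:**
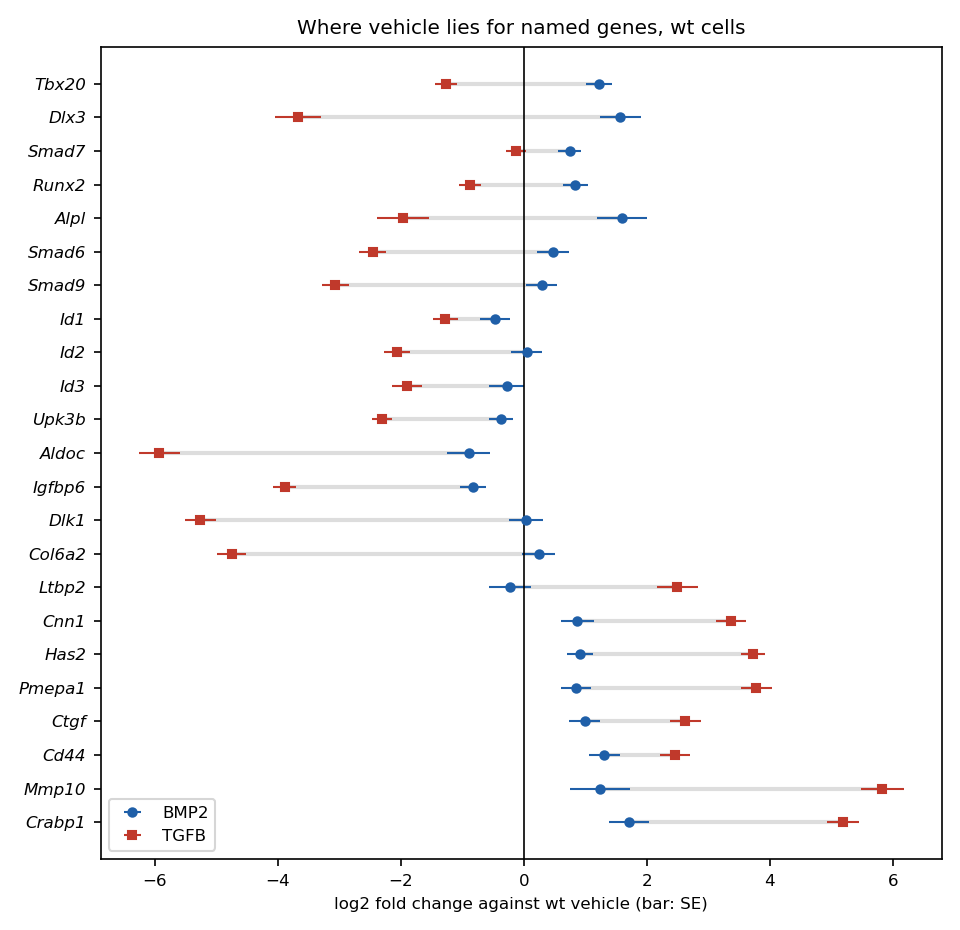
Log2 fold change against wt vehicle (horizontal axis) for named genes, with TGFB as red squares and BMP2 as blue circles; bars are the SE and the grey line spans the difference between the ligands. From Tbx20 to Alpl the BMP2 point lies above 0 and the TGFB point below it, and from Cnn1 down both points lie above 0.

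Epicardial genes were mainly higher with BMP2. Of 32 tested epicardial and mesothelial genes, 22 were called higher with BMP2 and 2 higher with TGFB, and the median was -1.23 against 0.02 over all genes. Gata5, a zinc finger factor gene, was at 0.236, 0.216, 0.182 and 0.177 CPM with TGFB and 18.1 and 15.9 CPM with BMP2, a 83.3-fold difference (-6.38 ± 0.32 (SE), adjusted p = 1.91e-08) with 18 reads over the 4 TGFB libraries and 420 over the 2 BMP2 libraries. Upk3b, the uroplakin that marks mesothelium (mm9 chr5:136514365-136520863, plus strand), was at 249, 291, 234 and 269 CPM with TGFB and 1076 and 907 CPM with BMP2 (-1.94 ± 0.17, adjusted p = 1.21e-06). Podxl was at 3.89, 2.65, 2.25 and 1.77 CPM with TGFB and 59.8 and 40.4 CPM with BMP2 (-4.29 ± 0.25, adjusted p = 7.75e-08).

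The 3 transcription factor genes most used to mark epicardium showed smaller differences. Wt1 was at 78.7, 75.9, 73.8 and 68.6 CPM with TGFB and 226 and 146 CPM with BMP2 (-1.32 ± 0.17, adjusted p = 3.15e-05), and Tcf21 at 125, 214, 148 and 257 CPM with TGFB and 349 and 494 CPM with BMP2 (-1.21 ± 0.17, adjusted p = 7.49e-05). Tbx18 was at 33.2, 41.1, 39.2 and 39.4 CPM with TGFB and 55.4 and 59.7 CPM with BMP2 (-0.59 ± 0.17, adjusted p = 0.0141); this call was lost without the replicate term (adjusted p = 0.109), without BMP2 replicate 1 (adjusted p = 0.157) and without TGFB2 replicate 2 (adjusted p = 0.0528). The 2 members higher with TGFB were Aldh1a2, the retinoic acid synthesis enzyme, at 51.1, 24, 56.5 and 31 CPM with TGFB and 14 and 13.1 CPM with BMP2 (1.52 ± 0.27, adjusted p = 0.000478), and the tendon factor gene Scx (2.71 ± 0.33).

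Contractile genes were divided. Of 28 tested smooth muscle contractile and stress fibre genes, 14 were higher with TGFB and 6 higher with BMP2, with a median of 0.45. Cnn1, which encodes calponin, was at 48.9, 31.9, 59.3 and 33.2 CPM with TGFB and 7.23 and 7.15 CPM with BMP2 (2.50 ± 0.24, adjusted p = 3.65e-06), and Acta2, smooth muscle alpha-actin, at 2882, 1957, 3038 and 2112 CPM with TGFB and 867 and 729 CPM with BMP2 (1.62 ± 0.33, adjusted p = 0.0015). Tagln, which encodes transgelin and whose entry overlaps Pcsk7, was at 2205, 1006, 1566 and 1043 CPM with TGFB and 812 and 552 CPM with BMP2 (1.05 ± 0.28, adjusted p = 0.00878), with vehicle at 707 and 333 CPM. The call of Tagln was lost without the replicate term (adjusted p = 0.149) and without BMP2 replicate 1 (adjusted p = 0.109).

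Higher with BMP2 were Mylk, the myosin light chain kinase gene, at 47.6, 67.5, 46.3 and 70 CPM with TGFB and 261 and 212 CPM with BMP2 (-2.09 ± 0.19, adjusted p = 1.96e-06), the smoothelin gene Smtn (-1.39 ± 0.17, adjusted p = 1.89e-05) and the vinculin gene Vcl (-1.13 ± 0.19, adjusted p = 0.000263). Myh11, the smooth muscle myosin heavy chain gene and the latest marker of that lineage, was low in every library, at 3.24, 0.955, 1.64 and 1.02 CPM with TGFB and 1.2 and 0.265 CPM with BMP2. Its libraries overlapped, and its call (1.37 ± 0.51, adjusted p = 0.0443) was lost in 7 of the alternatives tried. The count of 14 was 6 without the replicate term, 5 without BMP2 replicate 1 and 8 without BMP2 replicate 2, and the count of 6 higher with BMP2 was 3 without BMP2 replicate 1.

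Among 23 tested mesenchymal transition genes, 4 were higher with TGFB and 9 higher with BMP2 (56.5% called, 40.7% of all genes). The median was -0.32. Twist1 was at 40.1, 32.1, 34.5 and 28.7 CPM with TGFB and 102 and 88 CPM with BMP2 (-1.49 ± 0.13, adjusted p = 1.77e-06), and Zeb2 at 13.1, 14.1, 14.4 and 13.6 CPM with TGFB and 44.9 and 45.8 CPM with BMP2 (-1.71 ± 0.16, adjusted p = 2.74e-06). Snai1 was at 29.4, 23.3, 30.2 and 31.2 CPM with TGFB and 41.7 and 45.7 CPM with BMP2 (-0.62 ± 0.17, adjusted p = 0.00818), and its vehicle levels of 30.3 and 23.9 CPM were near those with TGFB; the call was lost without BMP2 replicate 2 (adjusted p = 0.101). Foxc2, a forkhead factor gene, was at 20.5, 17.3, 22.3 and 25.5 CPM with TGFB and 3.76 and 3.76 CPM with BMP2 (2.47 ± 0.22, adjusted p = 1.79e-06). Esrp2, a regulator of epithelial splicing, was also higher with TGFB, at 54.4, 44.5, 57.5 and 43 CPM with TGFB and 15.7 and 8.47 CPM with BMP2 (2.11 ± 0.23, adjusted p = 8.14e-06).

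Collagen genes were among the largest differences. Of 34 tested collagens, 20 were higher with TGFB and 4 higher with BMP2, and the median was 1.35. Col11a1, a fibrillar collagen of cartilage (mm9 chr3:113733457-113923244, plus strand), was at 636, 416, 794 and 418 CPM with TGFB and 8.58 and 3.76 CPM with BMP2, a 96.5-fold difference (6.59 ± 0.51 (SE), adjusted p = 9.12e-07). Its TGFB libraries were all above 400 CPM and its BMP2 libraries under 10, as were the vehicle libraries (5.44 and 2.15 CPM). Col4a4, a basement membrane chain, was at 24.1, 15.6, 24.4 and 15.7 CPM with TGFB and 4.07 and 3.39 CPM with BMP2 (2.41 ± 0.24, adjusted p = 4.10e-06). The 4 members higher with BMP2 were Col6a2 at 12, 16.1, 9.29 and 15.1 CPM with TGFB and 469.7 and 340.2 CPM with BMP2 (-4.99 ± 0.24, adjusted p = 1.73e-08), its partner Col6a1 at 61.9, 72.2, 46.6 and 63.4 CPM with TGFB and 1011 and 577 CPM with BMP2 (-3.69 ± 0.24, adjusted p = 1.25e-07), Col1a2 (-0.74 ± 0.18, adjusted p = 0.00416) and Col3a1 (-0.68 ± 0.23, adjusted p = 0.0271). Without BMP2 replicate 1 only 2 of the 4 were called, Col1a2 and Col3a1 no longer being so (adjusted p = 0.116 and 0.481).

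Other matrix genes did not share a direction. Of 41 tested matrix glycoproteins and proteoglycans, 12 were higher with TGFB and 13 higher with BMP2 (61% called, 40.7% of all genes). The median was -0.01. Wisp1, the matricellular protein CCN4 (mm9 chr15:66722954-66754761, plus strand), was at 642, 599.9, 767 and 787 CPM with TGFB and 14.2 and 21.4 CPM with BMP2, a 38.8-fold difference (5.28 ± 0.27 (SE), adjusted p = 1.91e-08). Mfap4, a microfibril-associated protein, was at 61.5, 51.5, 64.7 and 79.6 CPM with TGFB and 6.17 and 4.18 CPM with BMP2 (3.68 ± 0.27, adjusted p = 3.89e-07). Postn, the periostin gene, named after its values were seen, was at 3.77, 3.6, 2.67 and 3.05 CPM with TGFB and 0.151 and 0.212 CPM with BMP2 (4.04 ± 0.52, adjusted p = 3.61e-05), with 5 reads over the BMP2 libraries. Fbn2, which encodes fibrillin-2, was at 9.49, 5.36, 6.92 and 5.74 CPM with TGFB and 72.1 and 29.4 CPM with BMP2 (-2.82 ± 0.22, adjusted p = 5.59e-07), and Matn2, which encodes matrilin-2, at 6.54, 6.9, 4.74 and 6.49 CPM with TGFB and 25.6 and 24.8 CPM with BMP2 (-2.03 ± 0.18, adjusted p = 1.50e-06).

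Of 51 tested matrix enzymes and inhibitors, 20 were higher with TGFB and 10 higher with BMP2 (58.8% called, 40.7% of all genes). The median was 0.4. Mmp10 was at 13.6, 28.6, 17.4 and 28.8 CPM with TGFB and 0.452 and 1.27 CPM with BMP2 (4.59 ± 0.34, adjusted p = 4.59e-07). Has2 was at 39.7, 67.8, 53.6 and 83.2 CPM with TGFB and 6.78 and 10.6 CPM with BMP2 (2.81 ± 0.20, adjusted p = 2.65e-07), and the hyaluronidase gene Hyal1 at 317, 303, 287 and 279 CPM with TGFB and 37.2 and 31.1 CPM with BMP2 (3.13 ± 0.28, adjusted p = 1.73e-06). Both share a locus with other entries (Has2as on the opposite strand, and Nat6 and Hyal3), and no source used here gives the strand setting of the counting, so their reads are uncertain. Plod2, a lysyl hydroxylase that modifies collagen, was at 279.6, 348, 332 and 389 CPM with TGFB and 85.2 and 68.6 CPM with BMP2 (2.13 ± 0.19, adjusted p = 1.96e-06).

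Integrins and laminins, which anchor cells to matrix, gave 12 of 28 tested genes higher with TGFB and 4 higher with BMP2. The called share was 57.1% beside 40.7% of all genes, with a median of 0.35. Itgb4, the hemidesmosome integrin, was at 398, 402, 379.8 and 382 CPM with TGFB and 47.6 and 38.7 CPM with BMP2 (3.19 ± 0.32, adjusted p = 4.94e-06). Itgb8, an integrin that releases active TGF-beta from its latent complex, was at 0.236, 0.246, 0.0607 and 0.442 CPM with TGFB and 7.08 and 5.98 CPM with BMP2 (-4.67 ± 0.38, adjusted p = 8.79e-07). The laminin chains Lama4 at 9.02, 7.24, 9.47 and 9.23 CPM with TGFB and 66.7 and 43.9 CPM with BMP2 (-2.63 ± 0.17, adjusted p = 1.25e-07) and Lamb2 (-1.55 ± 0.17, adjusted p = 7.95e-06) were higher with BMP2. The count of 12 was 7 without BMP2 replicate 2.

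Of 36 tested mitotic genes, 26 were lower with TGFB than with BMP2, 1, Kif18b (1.06 ± 0.18, adjusted p = 0.000404), was higher with TGFB and 9 were not called, with a median of -0.97. Mki67, which encodes the proliferation marker Ki-67, was at 101, 69.4, 49.6 and 53.3 CPM with TGFB and 425 and 249.8 CPM with BMP2 (-2.29 ± 0.29, adjusted p = 4.38e-05), with vehicle at 173 and 228 CPM. Cenpf, a kinetochore protein, was at 13.1, 9.24, 9.41 and 7.6 CPM with TGFB and 65 and 46.4 CPM with BMP2 (-2.51 ± 0.28, adjusted p = 1.38e-05), Kif2c, a mitotic kinesin, at 10.5, 6.44, 6.62 and 5.39 CPM with TGFB and 37 and 29.2 CPM with BMP2 (-2.24 ± 0.23, adjusted p = 5.04e-06), and Ccna2, cyclin A2, at 48.7, 35, 37.6 and 28.3 CPM with TGFB and 88.4 and 87.3 CPM with BMP2 (-1.28 ± 0.14, adjusted p = 1.15e-05). No library of either ligand crossed into the range of the other in these 4 genes, as in most called genes.

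Of 36 tested S phase and E2F target genes, 13 were higher with BMP2, 3 were higher with TGFB and 20 were not called, with a median of -0.31; the called share of 44.4% was near the 40.7% of all genes. Ccne1, cyclin E1, was at 13, 9.34, 9.71 and 8.21 CPM with TGFB and 30.6 and 22 CPM with BMP2 (-1.38 ± 0.16, adjusted p = 1.38e-05), and the replication licensing factor gene Cdt1 at 69.2, 71.9, 52.6 and 62.4 CPM with TGFB and 135 and 147 CPM with BMP2 (-1.15 ± 0.16, adjusted p = 8.92e-05). E2f8 (-1.47 ± 0.21, adjusted p = 8.19e-05) and the thymidine kinase gene Tk1 (-1.03 ± 0.15, adjusted p = 9.00e-05) had the same direction. The count of 13 was 6 without the replicate term, 6 without BMP2 replicate 2 and 8 without TGFB2 replicate 1. The count of 3 was 0 without the replicate term or BMP2 replicate 1, and 1 without any of TGFB1 replicate 1, TGFB1 replicate 2 and TGFB2 replicate 2.

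Of 32 tested p53 targets and growth arrest genes, 21 were higher with TGFB, 2 were higher with BMP2 and 9 were not called, with a median of 0.87. T antigen binds p53 and the retinoblastoma protein, and any activity left at 37 °C was not measured here. Perp, a p53 target of desmosomes, was at 288, 222, 256 and 209 CPM with TGFB and 30.1 and 18.9 CPM with BMP2 (3.35 ± 0.28, adjusted p = 1.13e-06). Cdkn2a, the p16 and ARF locus, was at 1366, 1383, 1319 and 1524 CPM with TGFB and 333 and 401 CPM with BMP2 (1.93 ± 0.19, adjusted p = 5.07e-06), next to Cdkn2b on chromosome 4, described above. The cyclin G1 gene Ccng1 was at 456, 756, 630.2 and 774 CPM with TGFB and 164 and 237 CPM with BMP2 (1.71 ± 0.18, adjusted p = 5.88e-06), and Cdkn1a, which encodes p21, at 1855, 2302, 2137 and 2403 CPM with TGFB and 978 and 1055 CPM with BMP2 (1.09 ± 0.20, adjusted p = 0.000725).

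The 2 members higher with BMP2, like Cdkn1a and Kif18b named after their values were seen, were Ccnd1 at 51.8, 60.4, 35.4 and 42.9 CPM with TGFB and 95.5 and 94.3 CPM with BMP2 (-1.01 ± 0.21, adjusted p = 0.00184) and Cdkn2c (-0.58 ± 0.14, adjusted p = 0.00411). Ccnd1 encodes cyclin D1, which drives rather than arrests the cycle. The libraries of Cdkn2c overlapped, and its call was lost without the replicate term (adjusted p = 0.177) and without BMP2 replicate 2 (adjusted p = 0.107).

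Of 32 tested cholesterol and fatty acid synthesis genes, 19 were higher with BMP2, 2 were higher with TGFB and 11 were not called, with a median of -0.71; without the replicate term the 19 became 12. Srebf2, the transcription factor of the cholesterol pathway, was at 85, 75.5, 70.1 and 71.8 CPM with TGFB and 208 and 156 CPM with BMP2 (-1.25 ± 0.14, adjusted p = 1.17e-05). The fatty acid desaturase gene Scd1 was at 13.2, 15.5, 11.9 and 15.2 CPM with TGFB and 123 and 87.5 CPM with BMP2 (-2.90 ± 0.26, adjusted p = 2.20e-06). Hmgcs1, an early enzyme of the pathway, was at 25.2, 25.2, 21.8 and 25.4 CPM with TGFB and 69.4 and 52.8 CPM with BMP2 (-1.33 ± 0.17, adjusted p = 3.76e-05), from an entry placed on an unplaced part of chromosome 13 that overlaps other entries and is therefore uncertain. Hsd17b7 (0.55 ± 0.19, adjusted p = 0.0292) and Mvd (0.38 ± 0.14, adjusted p = 0.0488), the 2 higher with TGFB, were named after their values were seen and lost their calls in several of the alternatives tried.

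Of 31 tested glycolysis and hypoxia genes, 6 were higher with TGFB and 10 higher with BMP2 (51.6% called, 40.7% of all genes). The median was -0.33, and the count of 6 was near the 20.5% of all genes. Aldoc, aldolase C, was at 3.18, 3.63, 3.34 and 2.87 CPM with TGFB and 113 and 98.1 CPM with BMP2, a 32.8-fold difference (-5.03 ± 0.33 (SE), adjusted p = 2.62e-07), and vehicle, at 181 and 214 CPM, lay above BMP2. Hexokinase 2 (Hk2) was at 17.7, 14.4, 15.8 and 16.5 CPM with TGFB and 45.9 and 64.3 CPM with BMP2 (-1.79 ± 0.19, adjusted p = 6.87e-06), and Pfkp, a phosphofructokinase, at 14.9, 9.46, 10.1 and 7.33 CPM with TGFB and 25 and 22 CPM with BMP2 (-1.22 ± 0.17, adjusted p = 5.60e-05). Ddit4, an inhibitor of mTORC1, was at 219, 257, 254 and 286 CPM with TGFB and 71.8 and 120.4 CPM with BMP2 (1.42 ± 0.22, adjusted p = 0.000149). The count of 6 was 3 without the replicate term.

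ER chaperone and secretion genes gave 12 of 38 higher with TGFB and 4 higher with BMP2, with a median of 0.17, and the called share of 42.1% was near the 40.7% of all genes. Fkbp10, a collagen chaperone, was at 694, 629.7, 821 and 749 CPM with TGFB and 331 and 282 CPM with BMP2 (1.23 ± 0.18, adjusted p = 0.000104), and the chaperone calnexin (Canx) at 737, 990.0, 733 and 1049 CPM with TGFB and 404 and 472 CPM with BMP2 (0.99 ± 0.16, adjusted p = 0.000298). Pdia5, a disulfide isomerase (1.05 ± 0.17, adjusted p = 0.000211), and Creb3l2, a factor that drives secretory genes (1.22 ± 0.20, adjusted p = 0.000223), followed. The 12 were 7 without the replicate term, and the 4 were 2 without BMP2 replicate 2.

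Immune genes were called in both directions. Of the cytokine list 66.7% was called, beside 40.7% of all genes. Of 33 tested cytokines, chemokines and NF-kappaB genes, 9 were higher with TGFB and 13 higher with BMP2, with a median of -0.3; the 13 were 8 without the replicate term and 6 without BMP2 replicate 2. The monocyte chemokine gene Ccl7 was at 5.83, 9.73, 6.31 and 14.3 CPM with TGFB and 25.4 and 60 CPM with BMP2 (-2.23 ± 0.19, adjusted p = 1.46e-06). Il6 was at 5.19, 2.99, 6.25 and 6.62 CPM with TGFB and 0.151 and 0.371 CPM with BMP2 (4.06 ± 0.45, adjusted p = 1.09e-05), with 8 reads over the BMP2 libraries. Tnfrsf11b, which encodes osteoprotegerin, the decoy receptor for RANKL, was at 16.9, 10.3, 22 and 13.2 CPM with TGFB and 0.151 and 0.265 CPM with BMP2 (5.98 ± 0.47, adjusted p = 6.38e-07), with 6 reads over the BMP2 libraries.

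Of 40 tested interferon-stimulated and antigen presentation genes, 3 were higher with TGFB and 20 higher with BMP2 (57.5% called, 40.7% of all genes). The median was -0.58. The 3 higher with TGFB, named after their values were seen, were Tap1 (0.91 ± 0.20), Irf8 (1.51 ± 0.45, mean under 1 CPM with either ligand) and H2-D1 (0.51 ± 0.18). Tap1 and H2-D1 are antigen presentation genes, and B2m, H2-K1, Psmb8 and Psmb9 were not called. The growth medium of all cells had held interferon gamma until the change to 37 °C. Oas2, an antiviral RNA sensor, was at 4.54, 5.95, 4.01 and 8 CPM with TGFB and 29.8 and 47.9 CPM with BMP2 (-2.79 ± 0.30, adjusted p = 1.08e-05), with vehicle spread from 14.7 to 37.1 CPM. Ifih1, which encodes the RNA sensor MDA5, was at 35.8, 32.1, 27.7 and 28.6 CPM with TGFB and 81.6 and 90.7 CPM with BMP2 (-1.48 ± 0.16, adjusted p = 9.31e-06). Ddx60 (-1.59 ± 0.21, adjusted p = 5.23e-05) and the guanylate-binding protein gene Gbp4 (-1.35 ± 0.17, adjusted p = 2.96e-05) had the same direction; Gbp4 overlaps Gbp10 and a further Gbp entry, so its reads are uncertain. The count of 20 was 12 without the replicate term and 10 without BMP2 replicate 2. The count of 3 was 5 in the 8 wt libraries alone and 1 without the replicate term, BMP2 replicate 1 or TGFB2 replicate 2.

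Wnt pathway genes were divided, with 11 of 39 tested higher with TGFB and 16 higher with BMP2 (69.2% called, 40.7% of all genes). The median was -0.42. The ligand gene Wnt9a was at 272, 216, 249.7 and 200.0 CPM with TGFB and 49.5 and 33.3 CPM with BMP2 (2.52 ± 0.22, adjusted p = 1.58e-06), and Wnt11, a ligand of the non-canonical branch, at 107, 72.5, 114 and 87.4 CPM with TGFB and 19.6 and 22.3 CPM with BMP2 (2.13 ± 0.19, adjusted p = 1.58e-06). The receptor gene Fzd7 was at 36.8, 35.1, 39.6 and 34 CPM with TGFB and 108 and 105 CPM with BMP2 (-1.55 ± 0.14, adjusted p = 1.50e-06). Rspo1, a secreted amplifier of Wnt signals, was at 29.5, 23.5, 25.6 and 17.8 CPM with TGFB and 181 and 82.8 CPM with BMP2 (-2.39 ± 0.18, adjusted p = 5.72e-07). The 16 were 10 without the replicate term and 9 without BMP2 replicate 1, and the 11 were 6 without BMP2 replicate 2.

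Of 21 tested Notch pathway genes, 7 were higher with TGFB and 5 higher with BMP2, with a median of 0.24; the 5 were 3 without the replicate term or BMP2 replicate 1. The receptor gene Notch3, known in smooth muscle and pericytes, was at 276, 215, 255 and 175 CPM with TGFB and 49.8 and 19 CPM with BMP2 (2.89 ± 0.42, adjusted p = 0.000123). Hes6 was at 43.7, 31, 44.1 and 33.8 CPM with TGFB and 13.6 and 10.4 CPM with BMP2 (1.66 ± 0.18, adjusted p = 9.30e-06). Lfng, a glycosyltransferase that tunes Notch receptors, was at 13.4, 12, 14.4 and 10.7 CPM with TGFB and 28.9 and 21.7 CPM with BMP2 (-0.99 ± 0.18, adjusted p = 0.000505). Dlk1, described above, had the largest difference on this list, of which 57.1% was called, beside 40.7% of all genes.

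Of 49 tested growth factors and receptors, 14 were higher with TGFB and 16 higher with BMP2 (61.2% called, 40.7% of all genes). The median was 0.01. Igfbp4, an IGF-binding protein gene, was at 73.6, 128, 63.8 and 118 CPM with TGFB and 1262 and 1183 CPM with BMP2 (-3.74 ± 0.22, adjusted p = 7.94e-08), and Igfbp6 at 18.4, 28.7, 17.2 and 26.9 CPM with TGFB and 165 and 212 CPM with BMP2 (-3.07 ± 0.18, adjusted p = 7.75e-08). Stc1, a secreted glycoprotein hormone, was at 0.707, 0.832, 0.304 and 1.02 CPM with TGFB and 26.4 and 79.7 CPM with BMP2 (-6.28 ± 0.41, adjusted p = 2.82e-07), with replicate 1 below replicate 2 under BMP2 and under vehicle (30.9 and 98.9 CPM). The receptor gene Fgfr2 was at 54.2, 54.9, 45.2 and 48.7 CPM with TGFB and 256 and 163 CPM with BMP2 (-2.03 ± 0.18, adjusted p = 1.59e-06). Pdgfra, the PDGF receptor that marks fibroblast progenitors, named after its values were seen, was at 23.7, 49.7, 27.3 and 61.2 CPM with TGFB and 156 and 215 CPM with BMP2 (-2.28 ± 0.21, adjusted p = 1.90e-06).

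Cartilage and bone genes gave 13 of 24 higher with TGFB and 4 higher with BMP2 (70.8% called, 40.7% of all genes), with a median of 1.73. Only 24 of the 40 listed genes were tested, and Sp7, Col10a1, Ihh and Ibsp were not. Some of the 13 were near the floor, such as Matn1 (mean 0.61 CPM with TGFB and 0.026 with BMP2) and Matn3 (1.53 and 0.20). The cartilage factor gene Sox9 was not called (0.33 ± 0.28). Col11a1 and Tnfrsf11b, described above, led the group higher with TGFB. The tendon factor gene Scx was at 40.7, 17.8, 38 and 23.7 CPM with TGFB and 6.78 and 2.86 CPM with BMP2 (2.71 ± 0.33, adjusted p = 2.37e-05). In the group higher with BMP2, Runx2, the master factor of osteoblasts, was at 6.48, 8.69, 8.26 and 8.26 CPM with TGFB and 27.6 and 24.6 CPM with BMP2 (-1.72 ± 0.18, adjusted p = 5.96e-06). Alpl was at 0.648, 0.246, 0.243 and 0.221 CPM with TGFB and 5.27 and 2.6 CPM with BMP2 (-3.56 ± 0.40, adjusted p = 1.24e-05).

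Of 19 tested retinoic acid genes, 5 were higher with TGFB and 3 higher with BMP2, with a median of -0.03, and the called share of 42.1% was near the 40.7% of all genes; the 3 were 1 without the low-count filter or without BMP2 replicate 1. Crabp1 was at 25.8, 14.6, 29 and 20.7 CPM with TGFB and 1.81 and 1.91 CPM with BMP2 (3.48 ± 0.24, adjusted p = 2.89e-07). Crabp2, the second cellular retinoic acid binding protein gene, was at 14, 11.3, 10.1 and 12.3 CPM with TGFB and 1.81 and 1.85 CPM with BMP2 (2.74 ± 0.38, adjusted p = 6.49e-05).

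Guidance genes gave 13 of 40 higher with TGFB and 10 higher with BMP2 (57.5% called, 40.7% of all genes), with a median of 0.07. Sema6d, a semaphorin gene, was at 4.18, 4.59, 3.83 and 6.01 CPM with TGFB and 89.6 and 53.2 CPM with BMP2 (-3.93 ± 0.30, adjusted p = 8.42e-07), and its receptor family member Plxna4 at 63.5, 66.9, 57.3 and 57.2 CPM with TGFB and 593 and 217 CPM with BMP2 (-2.63 ± 0.24, adjusted p = 1.96e-06). Slit3, a secreted Slit ligand, was at 123, 87.2, 106 and 74.7 CPM with TGFB and 569 and 229.8 CPM with BMP2 (-1.94 ± 0.17, adjusted p = 1.40e-06). Ntn1, which encodes netrin-1, was at 69.1, 65.2, 61 and 58.3 CPM with TGFB and 15.2 and 13.9 CPM with BMP2 (2.11 ± 0.27, adjusted p = 3.83e-05). Both BMP2 libraries of the first 3 genes lay above all TGFB libraries, with replicate 1 above replicate 2. Most called genes likewise had no overlap.

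Of 23 tested Hox genes and cofactors, 1 was higher with TGFB and 9 were higher with BMP2, 5 of them without BMP2 replicate 2, and the median was 0. The called share of 43.5% was near the 40.7% of all genes. Hoxd4 (-1.79 ± 0.15, adjusted p = 1.16e-06), Hoxd3 (-1.33 ± 0.13, adjusted p = 4.87e-06) and Hoxd8 (-1.62 ± 0.18, adjusted p = 1.19e-05) lie in 1 cluster on chromosome 2, and the entries of Hoxd3 and Hoxd4 overlap, so their reads are uncertain. Meis2, a Hox cofactor, was at 72.1, 77.2, 69.9 and 69.2 CPM with TGFB and 195 and 124 CPM with BMP2 (-1.13 ± 0.16, adjusted p = 7.16e-05). The 1 member higher with TGFB, Hoxa5 (1.91 ± 0.50, adjusted p = 0.00789), named after its values were seen, was near 1 CPM, and its call was lost without BMP2 replicate 2 (adjusted p = 0.216).

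Of 36 tested cell junction and keratin genes, 10 were higher with TGFB and 10 higher with BMP2, with a median of 0.03; the latter were 6 without the replicate term or BMP2 replicate 1. Cdh13 was at 0.766, 0.801, 0.304 and 0.662 CPM with TGFB and 18.4 and 10.4 CPM with BMP2 (-4.42 ± 0.39, adjusted p = 1.77e-06), and Cldn15, a claudin of mesothelium and gut, at 8.07, 14.7, 6.38 and 14.7 CPM with TGFB and 58.6 and 60.9 CPM with BMP2 (-2.56 ± 0.24, adjusted p = 2.35e-06). Krt7, a keratin of simple epithelia, was at 59.8, 51.5, 56.6 and 66.7 CPM with TGFB and 153 and 125 CPM with BMP2 (-1.25 ± 0.18, adjusted p = 9.22e-05), with vehicle above both ligands at 238 and 203 CPM. Perp, described above, was the member higher with TGFB with the smallest p. Of this list 55.6% was called, beside 40.7% of all genes.

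**Figure D4:**
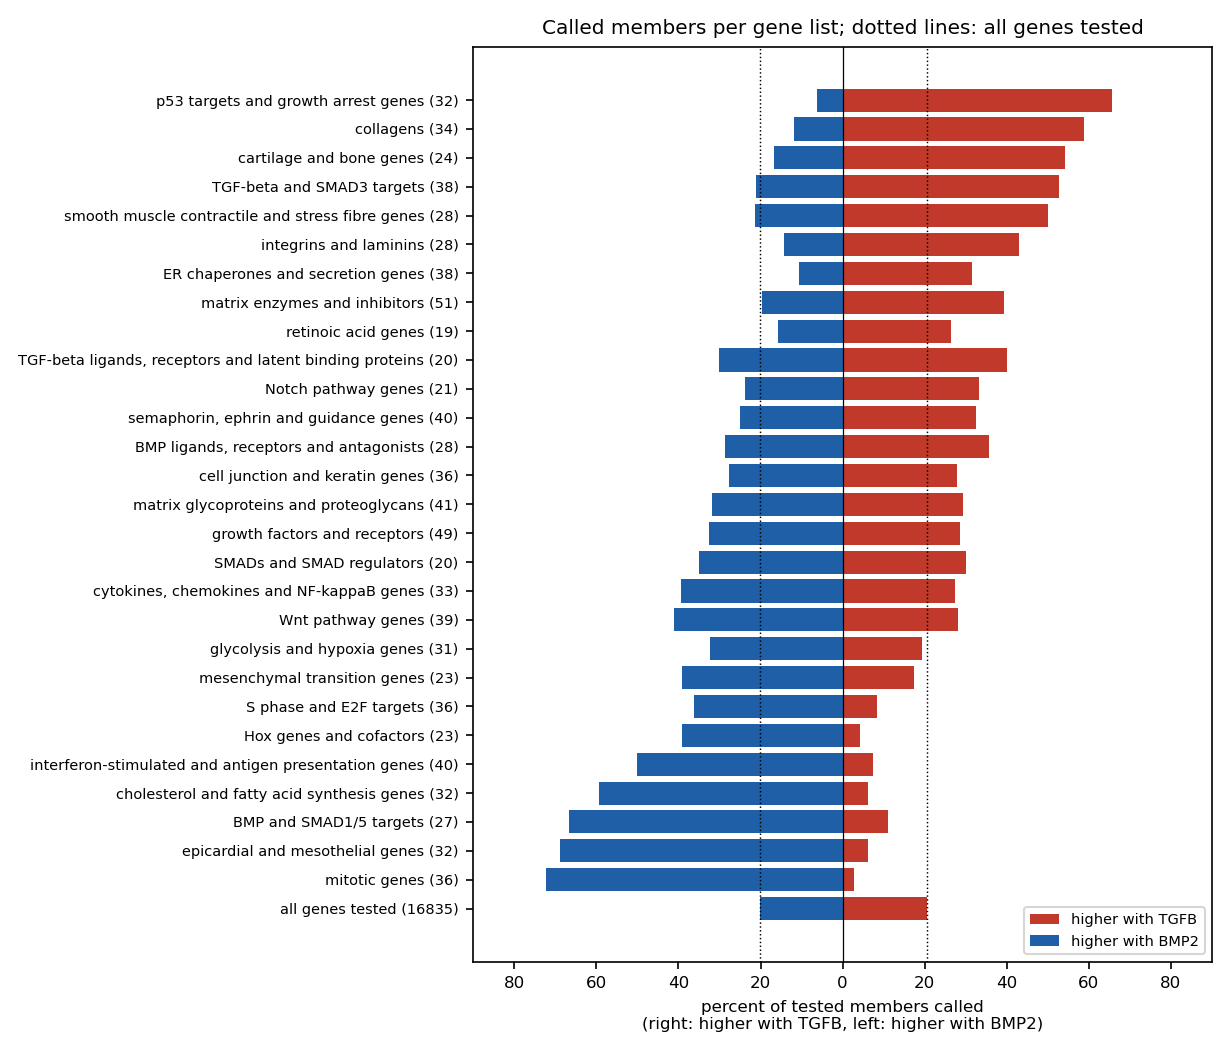
Percent of the tested members of each gene list (number tested in brackets) that were called higher with TGFB (red, to the right) or higher with BMP2 (blue, to the left) in wt cells. Dotted lines mark all 16835 genes, at 20.5% and 20.1%; p53 targets, collagens and cartilage genes reach farthest to the right, and mitotic, epicardial and BMP target genes farthest to the left.

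The remaining genes with the largest differences among those of at least 5 CPM were of varied function. Higher with TGFB, Scn4b, a sodium channel subunit, was at 28.1, 31.4, 26.1 and 33.8 CPM with TGFB and 0.452 and 0.424 CPM with BMP2 (6.06 ± 0.67, adjusted p = 1.51e-05), Ctsw, a cathepsin, at 31.4, 34.1, 34.9 and 50.5 CPM with TGFB and 1.05 and 0.9 CPM with BMP2 (5.32 ± 0.39, adjusted p = 3.89e-07), and Fam159b at 8.37, 16.1, 14.1 and 17.4 CPM with TGFB and 0.301 and 0.318 CPM with BMP2 (5.56 ± 0.44, adjusted p = 7.50e-07). Sec14l5 was at 8.9, 8.04, 10.8 and 6.23 CPM with TGFB and 0.301 and 0.159 CPM with BMP2 (5.24 ± 0.88, adjusted p = 0.000422), with 5 reads over the BMP2 libraries. The entry AK132829 (6.31 ± 0.46, adjusted p = 4.59e-07) lies on the opposite strand across the end of Col11a1, and the 2 cannot be told apart without strand.

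Higher with BMP2, Lingo1, which encodes a leucine-rich repeat membrane protein of neurons, was at 2.24, 2.22, 1.64 and 1.85 CPM with TGFB and 47.7 and 66.4 CPM with BMP2 (-4.85 ± 0.23, adjusted p = 1.65e-08). Gpr133, an adhesion G protein-coupled receptor, was at 0.354, 0.493, 0.425 and 0.221 CPM with TGFB and 13.7 and 19.1 CPM with BMP2 (-5.51 ± 0.55, adjusted p = 7.46e-06), and Lgals2, a galectin, at 0.471, 0.924, 0.486 and 1.1 CPM with TGFB and 13.4 and 19.3 CPM with BMP2 (-4.48 ± 0.31, adjusted p = 2.62e-07). In each of these the TGFB libraries were under 3 CPM, and the BMP2 and vehicle libraries overlapped.

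The same contrast in the mt line tells how far these differences recur in a second line, and it shares no library with that in wt cells. There 5531 genes were called (32.9%). Of these, 3997 were called in wt cells in the same direction, which is 58.4% of the wt calls and 72.3% of the mt calls, and 36 were called in the opposite direction. Across all genes the log2 fold changes of both lines had a correlation of 0.78. The difference between the lines was tested as an interaction. It was called for 272 genes (1.62%), with the wt value above the mt value for 221 (1.31%) and below it for 51 (0.303%). There is 1 line per genotype, so genotype and clone cannot be told apart.

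The interaction count moved with the processing. It was 34 without the replicate term, between 77 (without wt BMP2 replicate 2) and 250 with 1 library left out, 410 without the low-count filter and 711 by DESeq2. The mt replicate 1 libraries held more reads of the cardiomyocyte genes Myh6, Myh7 and Myl2 than the other libraries, and without these 4 libraries the count was 202.

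The largest interactions with the wt value above the mt value included genes called lower with TGFB in mt cells and not called in wt cells. Mgp, which encodes matrix Gla protein, an inhibitor of calcification, was at 402, 1055, 423 and 1803 CPM with TGFB and 571 and 2532 CPM with BMP2 in wt cells (-0.65 ± 0.30, adjusted p = 0.102), where the libraries overlapped. In mt cells it was at 6.83, 43.5, 5.13 and 16.1 CPM with TGFB and 140.1 and 791 CPM with BMP2 (-4.73 ± 0.32, adjusted p = 2.21e-07), and the interaction was 4.08 ± 0.47 (adjusted p = 0.00128). In 4 of the alternatives tried Mgp was called in wt cells too, in the same direction. Amdhd1, an enzyme of histidine breakdown, was at 6.42, 7.46, 5.46 and 8.3 CPM with TGFB and 7.23 and 4.92 CPM with BMP2 in wt cells and at 1.18, 0.88, 0.689 and 0.713 with TGFB and 13.6 and 9.19 with BMP2 in mt cells (interaction 3.96 ± 0.40, adjusted p = 0.000568). Its wt libraries overlapped and its mt libraries did not.

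Saa3, an acute phase gene, was lower with TGFB in both lines. In wt cells it was at 1.65, 6.75, 3.16 and 9.28 CPM with TGFB and 19.1 and 39.5 CPM with BMP2 (-2.57 ± 0.27, adjusted p = 7.01e-06), and in mt cells at 0.22, 0.147, 0.0765 and 0.0357 with TGFB and 9.31 and 15.3 with BMP2 (-7.12 ± 0.46; interaction 4.55 ± 0.61, adjusted p = 0.00238). Angptl7, an angiopoietin-like gene within an intron of Mtor, was -2.47 ± 0.35 in wt cells and -5.96 ± 0.40 in mt cells (interaction 3.49 ± 0.55, adjusted p = 0.00699). Mmp3, which encodes stromelysin-1, was called in opposite directions, at 0.93 ± 0.34 in wt and -2.45 ± 0.35 in mt cells (interaction 3.38 ± 0.50, adjusted p = 0.00407). The wt call of Mmp3 (adjusted p = 0.045) was lost in 6 of the alternatives tried, and its wt libraries overlapped.

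Among the pathway genes, Wnt11 was higher with TGFB in wt cells as given above and lower in mt cells, at 55.4, 44.8, 49.2 and 45.5 with TGFB and 85.9 and 66.4 with BMP2 (-0.63 ± 0.16, adjusted p = 0.00804; interaction 2.76 ± 0.24, adjusted p = 0.000289). Wisp1 was higher with TGFB in both lines, and its mt BMP2 levels of 101 and 96.6 CPM lay above those in wt cells (interaction 2.77 ± 0.29, adjusted p = 0.000582). The BMP targets Id1 (-2.90 ± 0.20 in mt cells, interaction 2.10 ± 0.30, adjusted p = 0.00278) and Atoh8 (-5.21 ± 0.23, interaction 2.47 ± 0.32, adjusted p = 0.00235) differed more between the ligands in mt cells. Of 27 tested BMP targets, 5 had a called interaction, as had 6 of 32 epicardial genes, among them Upk3b (1.53 ± 0.24, adjusted p = 0.00643), beside 1.62% of all genes. It was called for 1 of 38 TGF-beta targets and for 0 of 36 mitotic genes, 0 of 34 collagens and 0 of 40 interferon-stimulated genes. On lists of this size such counts lie near the 1.62% of all genes and do not show that these lists lack a line difference.

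The largest interactions in the other direction were those of Fosb, Tfrc, Flrt2, Sgk1 and Eef1a2. Fosb, an immediate early factor gene, was at 6.01, 3.23, 6.25 and 3.31 CPM with TGFB and 10.4 and 13.3 CPM with BMP2 in wt cells (-1.43 ± 0.30, adjusted p = 0.00177) and at 17, 8.51, 13.4 and 8.85 with TGFB and 2.92 and 2.88 with BMP2 in mt cells (1.96 ± 0.35; interaction -3.39 ± 0.46, adjusted p = 0.00238). The wt call of Fosb was lost without wt BMP2 replicate 2 (-0.98, adjusted p = 0.0895 in edgeR's quasi-likelihood test). Tfrc, the transferrin receptor gene, was at -1.07 ± 0.25 in wt and 1.42 ± 0.27 in mt cells (interaction -2.50 ± 0.37, adjusted p = 0.00325), and its wt call was lost without the same library (-0.57, adjusted p = 0.21). Sgk1, a kinase of ion transport, was higher with TGFB in both lines, at 1.64 ± 0.28 in wt and 3.67 ± 0.32 in mt cells (interaction -2.03 ± 0.40, adjusted p = 0.0223). Flrt2, a membrane protein of guidance (-2.34 ± 0.31 in wt, -0.01 ± 0.33 in mt cells), and the elongation factor gene Eef1a2 (-2.33 ± 0.22 and -0.31 ± 0.23) were called in wt cells and not in mt cells, with interactions of -2.33 ± 0.47 (adjusted p = 0.0272) and -2.02 ± 0.33 (adjusted p = 0.00688).

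Tgfbr3 itself, the gene deleted in mt cells, was at 10.3, 12.8, 11.9 and 12.1 CPM with TGFB and 9.73 and 13.1 CPM with BMP2 in that line, below every wt library. Reads from parts of the gene outside the deletion may remain.

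**Figure D5:**
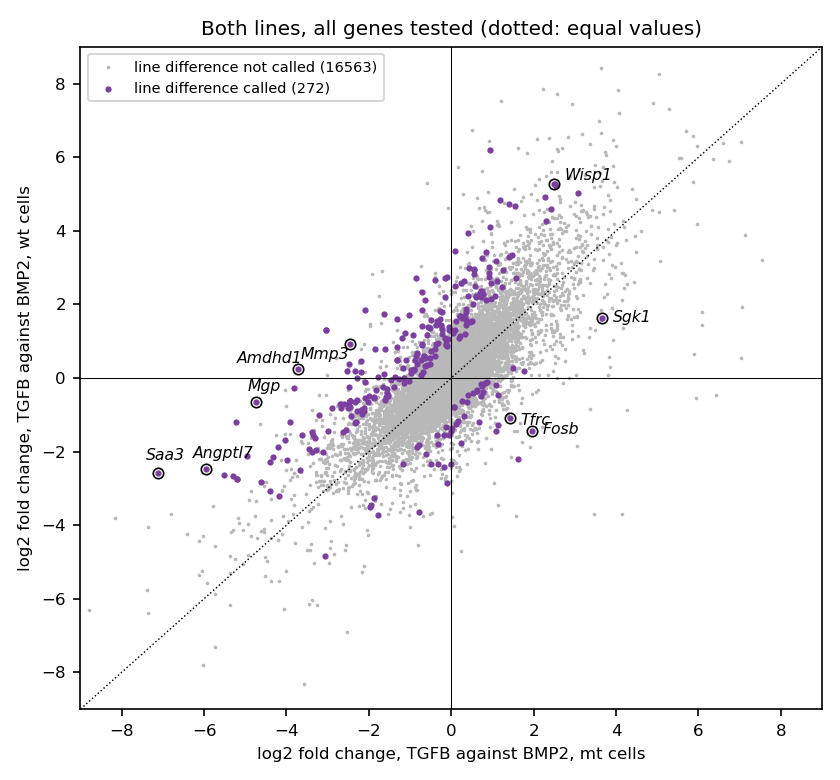
Log2 fold change of TGFB against BMP2 in mt cells (horizontal axis) and in wt cells (vertical axis) for all 16835 genes tested; the dotted line marks equal values. Purple points are the 272 genes whose difference between the lines was called, and circled genes are named; Saa3, Mgp, Angptl7, Amdhd1 and Mmp3 lie above the dotted line, Fosb, Tfrc and Sgk1 below it.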

How the data were processed

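Polyadenylated RNA was sequenced in 16 libraries. The authors deposited 2 tables, 1 per replicate number, with raw counts of reads per gene and RPM, the same reads scaled to a common total, for each library; the deposited RPM values equal reads over the column total to within 2.9e-11 and were not used further. Reads were aligned with TopHat or TopHat2 to mm9 per the submitters' processing notes; gene models, counting program and strand setting are not given in the sources used here. The 2 rows that name no gene, with the sums of the columns and 1 isolated value, were not used, and 27 date-like gene names were kept but not named.

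Counts of all 16 libraries were fitted with edgeR 4.0.16 under R 4.3.3, after filterByExpr and TMM scaling, by the robust quasi-likelihood F test, with 8 group means and the replicate number. The contrast was the mean of TGFB1 and TGFB2 minus BMP2, Benjamini-Hochberg adjusted over 16835 genes. The fit had 7 residual degrees of freedom and a biological coefficient of variation of 0.17; SE was derived by dividing the size of the log2 fold change by the root of F. DESeq2 1.42.0 was an alternative. The edgeR fit was also run on simulated counts with changes put into a small set of genes. Those counts had no replicate effect, unlike the data, so that run does not measure the error rate here. Of the genes tested, 4173 overlap another entry on the same strand; among those named, Itgb4 (Galk1), Ccna2 (Exosc9), Tk1 (Afmid), Scx (Bop1), Lgals2 (Cdc42ep1), Runx2 (Supt3h), Pfkp (Pitrm1), Fkbp10 (Nt5c3l), Ccnd1 (Oraov1) and Hoxa5 (Hoxa3) overlap the gene in brackets on either strand, so their reads are uncertain.

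The replicate numbers pair the libraries: after removal of group means, the deviations of same-numbered libraries correlated at 0.16 or more for each of the 28 group pairs (median 0.51), and each number has its own table. Library totals of 6.41 to 31.81 reads in units of 1000000 set the precision of low genes.

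Genes were named by rule: 21 anchors, the 8 largest differences in each direction (mean of at least 5 CPM, libraries not overlapping), the 4 called members of each of 28 lists with the smallest p, and the 5 largest line differences in each direction. The contrast, lists and rule were chosen with earlier results of these data known. Some rule-named genes are not reported here. Tnnt2, Scx, Myh11, Col3a1 and the others so described were named after their values were seen. Alternatives were the replicate term, RLE size factors, no low-count filter, DESeq2, other sample sets and each library left out; counting shared loci once and leaving out the 4 mt replicate 1 libraries were chosen after seeing the data.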

Additional observations from a re-analysis of the deposited data

Results flagged for a closer look

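In 6 named genes, 1 of the 4 wt TGFB libraries stood apart from the other 3, by its gap to the nearest over the whole range on a log scale; chance flags about 1 in 20 groups, and 170 genes were examined. TGFB1 replicate 1 was the library apart for Smtn (0.841), Alpl (0.909) and Cd44 (0.934), and TGFB2 replicate 1 for Matn2 (0.838), Hmgcs1 (0.928) and Kif18b (0.862).

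The difference of TGFB against BMP2 between the lines (wt minus mt, log2) passed edgeR's interaction test for 29 of the 170 named genes. It was positive for Saa3 (4.55), Mgp (4.08), Amdhd1 (3.96), Angptl7 (3.49), Mmp3 (3.38), Bglap (3.06), Crabp2 (2.83), Wisp1 (2.77), Wnt11 (2.76), Atoh8 (2.47), Ccnd1 (2.21), Mmp10 (2.16), Pdgfra (2.12), Itgb4 (2.11), Id1 (2.10), Perp (1.86), Id3 (1.69), Upk3b (1.53), Igfbp6 (1.32), Cdkn2b (1.28), Lfng (1.17), Tcf21 (1.13) and Pdia5 (1.12). It was negative for Fosb (-3.39), Tfrc (-2.50), Flrt2 (-2.33), Sgk1 (-2.03), Eef1a2 (-2.02) and Lingo1 (-1.79). Of these, Crabp2 was 2.74 ± 0.38 in wt and -0.10 ± 0.27 in mt cells, Pdgfra -2.28 ± 0.21 and -4.40 ± 0.23, and Ccnd1 -1.01 ± 0.21 and -3.22 ± 0.21. Over all genes tested the interaction was called for 1.62%. The 5 largest line differences in each direction were named because this test called them, so for those genes passing was fixed in advance.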

How the results depend on the processing

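The count of 6847 called genes moved by over 1.5 times under 1 planned setting and with 1 library left out. Without the replicate term 4112 genes were called (2023 higher with TGFB, 2089 higher with BMP2), so the replicate block, which pairs the libraries, changed the count. With each of the 6 compared libraries left out in turn it ran from 4441, without BMP2 replicate 1, to 6442 (2255 to 3249 higher with TGFB, 2186 to 3193 higher with BMP2). Such fits leave 1 library of that ligand, assumed to vary like the others, and change the genes tested. Where it is TGFB1 or TGFB2, the pooled TGFB arm keeps both libraries of the other TGFB ligand. RLE size factors gave 6824, no low-count filter 6349, DESeq2 6938, a replicate term per line 7126, the 8 wt libraries alone 7414, the 6 compared libraries alone 6623, and shared loci counted once 6564.

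The 272 genes of the line difference were 34 without the replicate term, 410 without the low-count filter, 711 by DESeq2 and 77 to 250 with 1 of the 12 compared libraries left out, a fall of over 1.5 times for each library except wt TGFB2 replicate 1, mt TGFB1 replicate 2 and mt TGFB2 replicate 2. RLE size factors gave 258, a replicate term per line 344 and shared loci counted once 256. Of the 166 named genes called, 18 lost the call somewhere, 12 of them without the replicate term. The value of Amdhd1, which was not called in wt cells, ran from -0.002 without TGFB2 replicate 2 to 0.447 without BMP2 replicate 1; the cause was not tested. Depth limits low genes most.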

Other observations

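Several genes outside the lists' leading members, chosen after their values were seen, had BMP2 levels between vehicle and TGFB. Cd44, the hyaluronan receptor, was at 21.7 and 29.4 CPM with vehicle, 42.3 and 85.2 with BMP2 and 115, 149, 146 and 149 with TGFB, and the 3 conditions did not overlap (1.15 ± 0.23, adjusted p = 0.00113 between the ligands). Ltbp1, which holds latent TGF-beta in the matrix, was at 3.69 and 4.75, 10.5 and 13.2 and 30.5, 25.1, 25.3 and 23.6 CPM (1.11 ± 0.21, adjusted p = 0.000791). F2r, the thrombin receptor PAR1, was at 55.2 and 50.7, 120.0 and 127 and 239.9, 178, 243 and 199 CPM (0.77 ± 0.16, adjusted p = 0.00148). Hes1, a Notch target, was higher with either ligand than with vehicle by value, at 16.4 and 25.2, 38.1 and 52.8 and 31.6, 40, 36.4 and 45.6 CPM, and the ligands overlapped (-0.24 ± 0.13, adjusted p = 0.167). No BMP2 against vehicle difference passed edgeR's test.

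Vascular growth factor and receptor genes were divided. Vegfc was at 21.7, 23.4, 24.5 and 22.5 CPM with TGFB and 8.13 and 10.2 CPM with BMP2 (1.32 ± 0.17, adjusted p = 4.43e-05), and the co-receptor gene Nrp1 at 190.0, 207, 215 and 205 CPM with TGFB and 71.5 and 60.5 CPM with BMP2 (1.64 ± 0.16, adjusted p = 4.46e-06), while the receptor genes Kdr (-1.40 ± 0.21, adjusted p = 0.000133) and Tek (-1.32 ± 0.19, adjusted p = 9.84e-05) were higher with BMP2. Kdr and Tek also count among the endothelial markers, of which Pecam1 and Emcn were under 1 CPM in all 6 libraries; the part of endothelial cells in these values was not tested.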
